A study of Mus musculus with 4 samples.

Results

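The 10 genes described here are targets and carriers of the unfolded protein response: Hspa5, Hyou1, Herpud1, Xbp1, Sdf2l1, Pdia4, Pdia6, Creld2, Dnajb9 and Manf. They were chosen by symbol, with earlier results of these data known, and are 10 of the 32285 features in the deposited tables. Each symbol stands for 1 gene ID, and UMIs of all 10 were found in all 4 libraries. The cells are CD45-positive leukocytes from livers of IL-22sgBFP mice, a reporter strain in which a blue fluorescent protein marks cells that express Il22. One pair of libraries holds IL-22-negative cells, 12 h after MC38 mouse colon cancer cells in saline buffer were injected into the spleen, and before that injection (0 h). The other pair holds IL-22-positive cells of the same times. All groups carry the reporter allele, there is 1 library per group, the labels do not give the age or number of mice, and no library analysed here follows an injection without cancer cells. Ptprc, which encodes CD45, had UMIs in 61.8% to 83.6% of the cells of each library. Il22 itself was rare in the sorted positives: 0 of 1345 IL-22-positive cells at 12 h and 3 of 283 at 0 h had an Il22 UMI, against 1 of 9592 and 7 of 7859 IL-22-negative cells, so the fractions are named here by their sort. The count of 0 in 1345 cells allows a share of up to 0.223% of cells with an Il22 UMI in the population sampled.

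The unfolded protein response adjusts the folding capacity of the endoplasmic reticulum (ER) to its load of secreted and membrane proteins. It is started in the ER membrane by the sensors IRE1, ATF6 and PERK. IRE1 splices the Xbp1 mRNA, ATF6 is cut to release a transcription factor, and PERK slows translation. XBP1 and ATF6 raise chaperones, disulfide isomerases and components of ER-associated degradation. Plasma cells, which secrete antibody, need XBP1 to build their secretory apparatus, and plasmacytoid dendritic cells (pDCs), which can secrete large amounts of type I interferon, also have a well developed ER. The 3' end counts used here measure Xbp1 mRNA but do not separate its spliced from its unspliced form.

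The XBP1 and ATF6 branches act through short promoter elements, and 8 of the 10 genes matched the RefSeq promoter table (build GRCm38.p6), which gives 250 bases before and 50 after each gene's start. The promoters of Hyou1 and Manf were not analysed here. The ER stress element ERSE (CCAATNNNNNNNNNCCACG, both strands) was found in the promoters of Hspa5, Pdia6 and Creld2, and in 39 of all 32851 promoters (0.119%). ERSE-II (ATTGGNCCACG, both strands), which ends in the same letters as ERSE, was found in that of Herpud1 and in 12 promoters overall (0.0365%). The core of the XBP1-binding unfolded protein response element (TGACGTGG, both strands) was found in none of the 8 and in 222 of all promoters (0.676%). The 4 matches are shown with 20 bases on either side, because these are the elements through which chaperone genes of this kind are known to be raised. Capitals mark the fixed letters of the element, and each sequence is 5′ to 3′ on the gene's strand, which is the plus strand in all 4.
Hspa5: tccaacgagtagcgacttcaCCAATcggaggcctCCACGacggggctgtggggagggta
Pdia6: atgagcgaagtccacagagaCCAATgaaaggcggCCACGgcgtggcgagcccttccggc
Creld2: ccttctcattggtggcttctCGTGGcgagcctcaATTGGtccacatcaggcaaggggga
Herpud1: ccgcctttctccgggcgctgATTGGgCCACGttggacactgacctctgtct
The Hspa5 window is chr2:34772005-34772063, and its element runs from base 65 to base 47 before the RefSeq start. The GENCODE gene given further on starts earlier, at base 34771970, so this window lies inside it, while the other 3 windows end before the GENCODE starts. The Pdia6 window is chr12:17266471-17266529, with the element from base 98 to base 80 before the RefSeq start. In Creld2 (chr15:88819500-88819558) the element lies on the opposite strand, from base 126 to base 108 before the RefSeq start. In Herpud1 (chr8:94386357-94386407) the element runs from base 52 to base 42 before the RefSeq start. A match of letters is a description of these windows and not a measurement of binding.

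The 4 libraries held 300 to 10231 barcodes. After filters on genes, mitochondrial UMIs and doublets, the IL-22-negative pair kept 9592 cells at 12 h and 7859 at 0 h, and the IL-22-positive pair 1345 and 283 cells. Median depth in the negative pair was 2164 UMIs at 12 h and 1790 at 0 h, and in the positive pair 3719 and 3352 UMIs. Pairs of libraries shared between 0 and 116 barcode sequences. Cell classes were rebuilt by clustering without the 10 genes, without the wider pathway lists named further on and without antigen receptor segments, and the suffix "-like" marks a name that rests on markers alone. Levels are CPM, the UMIs of a gene scaled to a total of 1000000 over all UMIs of a class in a library, and since genes differ in how well their 3' ends are captured, CPM is compared between classes and not between genes. Intervals in parentheses are exact 95% intervals that cover counting error only, since with 1 library per group no spread between mice can be measured and no test between groups can be run. Ratios therefore compare libraries, not conditions, and a gene counts as past a fold by the ratio alone.

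Plasma-cell-like cells numbered 147 at 12 h and 99 at 0 h in the IL-22-negative libraries, and pDC-like cells 379 and 272. All 9 markers of the plasma cell list and all 10 of the pDC list were detected in these classes at both times. Jchain, the joining chain of secreted IgA and IgM, stood at 23062 CPM in plasma-cell-like cells at 12 h and 23420 CPM at 0 h. Siglech, a surface lectin of pDCs, stood at 2021 CPM in pDC-like cells at 12 h and 2217 CPM at 0 h. The IL-22-positive libraries held too few of either to describe, with 0 plasma-cell-like cells at 12 h and 2 at 0 h, and 11 pDC-like cells at 12 h and 5 at 0 h.

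The 10 genes together were most abundant in plasma-cell-like cells among the named classes, at both times. Their summed level there was 7143 CPM (7017 to 7271) at 12 h and 7666 CPM (7494 to 7841) at 0 h. In pDC-like cells it was 1875 CPM (1806 to 1946) at 12 h and 1670 CPM (1593 to 1750) at 0 h. B-cell-like cells had 788 CPM at 12 h and 859 CPM at 0 h, and T-cell-like cells 760.4 and 744 CPM at 12 h and 0 h. Myeloid cells, which are monocyte-like, conventional dendritic cell (cDC)-like and neutrophil-like cells and a mixed cluster with monocyte and macrophage markers, had 1586 CPM at 12 h and 1225 CPM at 0 h. The mixed cluster alone stood above pDC-like cells at 12 h, with 2248 CPM (2150 to 2350), and at 0 h its interval overlapped theirs, with 1836 CPM (1638 to 2051). The pooled myeloid cells stood below pDC-like cells at both times without overlap of the intervals. B-cell-like and T-cell-like cells were close, with intervals of 759 to 817 CPM and 743 to 778 CPM at 12 h that overlap and of 831 to 888 CPM and 722 to 765 CPM at 0 h that do not.

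**Figure D1:**
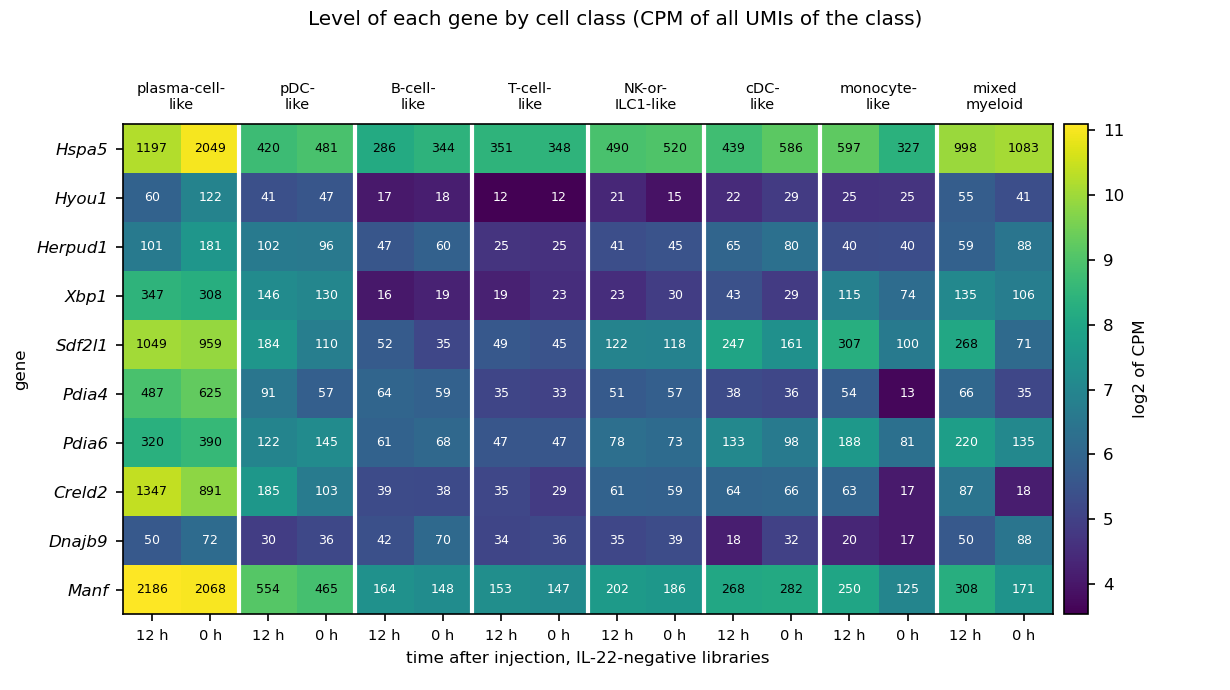
Level of each of the 10 genes (rows) by cell class and time (columns, 12 h left of 0 h) in the IL-22-negative libraries, as CPM of all UMIs of the class; colour shows log2 of CPM and the figures in the cells are CPM. Manf, Hspa5, Sdf2l1 and Creld2 exceed 890 CPM in plasma-cell-like cells at both times, and Dnajb9 stays between 17 and 88.3 CPM in every class shown.

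Among the chaperones, Hspa5 encodes BiP, the Hsp70 of the ER lumen that also restrains the sensors (chr2:34771970-34777547; positions are in GRCm38, on the plus strand unless given). Hspa5 had 1197 CPM in plasma-cell-like cells at 12 h, against 286 in B-cell-like, 351 in T-cell-like and 581 CPM in myeloid cells. At 0 h it had 2049 CPM in plasma-cell-like cells, against 344, 348 and 551 CPM in the same 3 classes. Hspa5 was thus well represented in every class, and its ratio of plasma-cell-like over B-cell-like cells was 4.18 (3.88 to 4.51) at 12 h and 5.96 (5.57 to 6.39) at 0 h. Hyou1 (chr9:44379490-44392369) encodes a large Hsp70-related chaperone that serves BiP as a nucleotide exchange factor. It had 60.2 CPM in plasma-cell-like cells at 12 h, against 16.7 in B-cell-like, 11.7 in T-cell-like and 28.0 CPM in myeloid cells. At 0 h Hyou1 had 122 CPM in plasma-cell-like cells, against 18.0, 11.6 and 28.7 CPM in those classes.

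Of the proteins that work beside BiP, Manf, Creld2 and Sdf2l1 were each over 10 times as abundant in plasma-cell-like as in B-cell-like cells at both times, and Dnajb9 was not. Manf (chr9:106838312-106891979, minus strand) encodes a small secreted ER protein that binds BiP. Manf had 2186 CPM in plasma-cell-like cells at 12 h, against 164 in B-cell-like, 153 in T-cell-like and 264 CPM in myeloid cells, with 2068 CPM against 148, 147 and 204 CPM at 0 h. Creld2 (chr15:88819646-88826683) encodes a cysteine-rich ER protein induced by ER stress. Creld2 had 1347 CPM in plasma-cell-like cells at 12 h, against 38.8 in B-cell-like, 35.4 in T-cell-like and 66.1 CPM in myeloid cells. Its ratio over B-cell-like cells, 34.8 (29.3 to 41.5) at 12 h and 23.5 (19.8 to 28.0) at 0 h, was the highest of the 10 at 12 h. Sdf2l1 (chr16:17130138-17132383, minus strand) encodes a lumenal partner of BiP and its co-chaperones. It had 1049 CPM in plasma-cell-like cells at 12 h, against 52.1 in B-cell-like, 49.2 in T-cell-like and 270 CPM in myeloid cells. At 0 h the Sdf2l1 ratio over B-cell-like cells was 27.2 (22.8 to 32.6), the highest of the 10 at that time. Dnajb9 (chr12:44205559-44210326, minus strand) encodes ERdj4, a J-domain partner through which BiP represses IRE1. It had 49.7 CPM in plasma-cell-like cells at 12 h, against 41.8 in B-cell-like, 34.4 in T-cell-like and 23.6 CPM in myeloid cells, levels closer to each other than those of the other genes.

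The disulfide isomerases Pdia4 (chr6:47796141-47813430, minus strand) and Pdia6 (chr12:17266545-17284770) catalyse the disulfide bonds that antibody chains need. Pdia4 had 487 CPM in plasma-cell-like cells at 12 h, against 63.9 in B-cell-like, 34.6 in T-cell-like and 47.7 CPM in myeloid cells. Pdia6 had 319.9 CPM in plasma-cell-like cells at 12 h, against 60.6 in B-cell-like, 46.8 in T-cell-like and 165 CPM in myeloid cells. Myeloid cells were thus below B-cell-like cells for Pdia4 and above them for Pdia6. Xbp1 (chr11:5520659-5525893), the transcription factor, had 347 CPM in plasma-cell-like cells at 12 h, against 16.4 in B-cell-like, 18.8 in T-cell-like and 85.5 CPM in myeloid cells, a ratio of 21.2 (16.2 to 28.1) over B-cell-like cells. Herpud1 (chr8:94386438-94395377) encodes an ER membrane protein of the degradation machinery. Herpud1 had 101 CPM in plasma-cell-like cells at 12 h, against 47.5 in B-cell-like, 25.3 in T-cell-like and 54.4 CPM in myeloid cells, a ratio of 2.12 (1.71 to 2.63) over B-cell-like cells.

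At 12 h, 9 of the 10 genes were at least 2-fold higher in plasma-cell-like than in B-cell-like cells, while 8.03% of all 7413 genes with enough UMIs for a ratio were. The count was 9 over T-cell-like cells (7.05% of all genes) and 8 over myeloid cells (7.07% of all genes). At 0 h it was 9 over B-cell-like (6.46% of all genes), 9 over T-cell-like (6.77%) and 10 over myeloid cells (7.93%). In all, 7 genes at 12 h and 9 at 0 h passed the 2-fold line over all 3 classes, and those that did not were Dnajb9 at both times and Herpud1 and Pdia6 at 12 h. The share of all genes past the line over all 3 classes at once is not given here, so these 2 counts stand without a background. The median log2 ratio of the 10 over B-cell-like cells was 2.67 at 12 h, against -0.96 over all genes. Immunoglobulin took 38.4% of the UMIs of plasma-cell-like cells at 12 h and 39.8% at 0 h, so CPM understates every other gene there. On the CPM of UMIs outside immunoglobulin genes the median of the 10 over B-cell-like cells at 12 h was 3.335. Relative to the median gene it was 3.631. These scalings thus differ, and what else goes with the low median was not tested. Relative to the median gene, all 10 were past 2-fold over each of the 3 classes at both times. That scaling lifts the ratio of every gene, since the median log2 ratio of all genes lay between -1.13 and -0.96 over these classes. More genes of any kind then pass the line, and their share is not given here. On that scaling the Dnajb9 ratio over B-cell-like cells was 2.32 at 12 h and 2.26 at 0 h, against 1.19 and 1.03 on CPM. On the CPM of UMIs outside immunoglobulin genes the Dnajb9 ratios were 1.89 and 1.67.

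**Figure D2:**
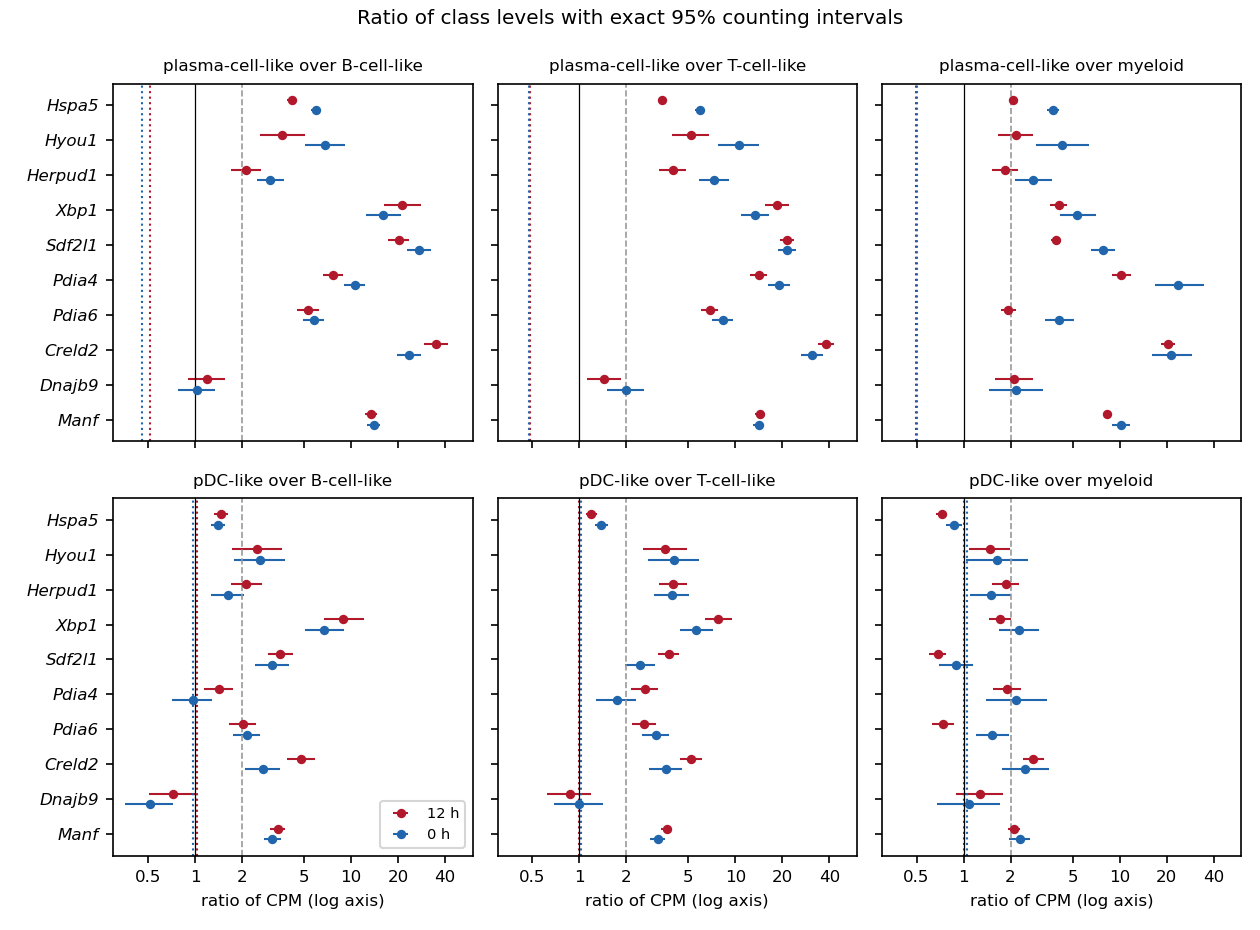
Ratio of CPM (log axis) of plasma-cell-like cells (top row) and pDC-like cells (bottom row) over B-cell-like, T-cell-like and myeloid cells for each of the 10 genes at 12 h (red) and 0 h (blue), with exact 95% counting intervals. The dashed line marks a ratio of 2, the solid line 1, and dotted lines the median ratio of all genes tested. Creld2, Sdf2l1, Xbp1 and Manf lie farthest to the right in plasma-cell-like over B-cell-like cells at both times and over T-cell-like cells at 12 h, while over T-cell-like cells at 0 h Pdia4, at 19.0, lies right of Manf and Xbp1. In pDC-like cells Hspa5 and Sdf2l1 at both times, and Pdia6 at 12 h, lie below 1 over myeloid cells.

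Single plasma-cell-like cells carried several of the genes at once. With each cell thinned to 1000 UMIs, 69.2% of 146 plasma-cell-like cells at 12 h held UMIs of at least 3 of the 10 genes (61.0 to 76.6), and 74.5% of 94 at 0 h (64.4 to 82.9). The same share was 15.4% in pDC-like cells at 12 h and 14.5% at 0 h, 2.84% and 2.95% in B-cell-like cells, and 2.52% and 2.56% in T-cell-like cells. It was 12.2% at 12 h and 4.23% at 0 h in myeloid cells, and 17.2% and 6.52% in their mixed cluster alone. Thus the genes were found together in most plasma-cell-like cells but in few B-cell-like and T-cell-like cells, at equal depth. Thinned plasma-cell-like cells held a mean of 7.02 UMIs of the 10 genes at 12 h and 9.99 at 0 h. No share for other gene sets of such a level is given. Before thinning, the median depth was 11400 UMIs in plasma-cell-like and 2306 UMIs in T-cell-like cells at 12 h. The thinned share with a Manf UMI was 69.9% in plasma-cell-like cells at 12 h and 75.5% at 0 h, against 13.1% and 13.2% in T-cell-like cells.

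pDC-like cells had a summed level between those of plasma-cell-like and B-cell-like cells, and it was uneven across the genes. Xbp1 had the highest ratio of the 10 over B-cell-like and T-cell-like cells at both times, but not over myeloid cells, where Creld2 had it at 12 h (2.80) and at 0 h (2.48). Xbp1 had 146 CPM in pDC-like cells at 12 h, against 16.4 in B-cell-like, 18.8 in T-cell-like and 85.5 CPM in myeloid cells, and 129.7 CPM against 19.2, 23.1 and 57.4 CPM at 0 h. Its ratio over B-cell-like cells was 8.93 (6.68 to 12.1) at 12 h and 6.75 (5.08 to 9.02) at 0 h. Manf had 554 CPM in pDC-like cells at 12 h and 465 CPM at 0 h, which was 3.38 times the level of B-cell-like cells at 12 h and 3.14 times at 0 h. Hspa5 did not follow, with 420.0 CPM in pDC-like cells at 12 h and 481 CPM at 0 h, below the 581 and 551 CPM of myeloid cells. Dnajb9 was lower in pDC-like than in B-cell-like cells at 0 h, with a ratio of 0.517 (0.359 to 0.727). At 12 h, 7 of the 10 genes were at least 2-fold higher in pDC-like than in B-cell-like cells (14.5% of all genes), 8 than in T-cell-like cells (12.9%) and 2 than in myeloid cells (11.5%). At 0 h the counts were 6 over B-cell-like (12.4%), 7 over T-cell-like (12.9%) and 4 over myeloid cells (12.4%). Creld2 and Manf passed over all 3 classes at 12 h, and Xbp1, Creld2 and Manf at 0 h, for which no share of all genes is given.

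One pDC-like cell of 12 h held 301 of the 2808 UMIs of the 10 genes in its class, or 10.7%. It had 20274 UMIs, of which 4866 (24.0%) were immunoglobulin, with 468 Jchain UMIs beside 27 of the pDC marker Cox6a2 and 13 of Siglech. Without this cell the summed level of the 10 genes in pDC-like cells at 12 h was 1697 CPM (1631 to 1765), against 1670 CPM (1593 to 1750) at 0 h. With the cell richest in these UMIs left out of every class, Creld2 alone passed the 2-fold line over all 3 classes at 12 h, and the Manf ratio over myeloid cells was 1.95.

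Over time, plasma-cell-like cells differed between genes of the response. Hspa5 had 1197 CPM (1145 to 1250) at 12 h and 2049 CPM (1961 to 2141) at 0 h, a ratio of 0.584 (0.549 to 0.621). Hyou1 had 60.2 CPM at 12 h and 122 CPM at 0 h, a ratio of 0.494 (0.376 to 0.648), and Herpud1 had 101 CPM at 12 h and 181 CPM at 0 h, a ratio of 0.556 (0.448 to 0.689). Creld2 was on the other side, with 1347 CPM at 12 h and 891 CPM at 0 h, a ratio of 1.51 (1.40 to 1.64). The BiP partners Manf and Sdf2l1 stayed near 1, at 1.06 (1.00 to 1.12) and 1.09 (1.01 to 1.19), and so did Xbp1 at 1.13 (0.978 to 1.30). By a 1.5-fold line, 3 of the 10 were lower at 12 h (10.5% of all genes) and 1 was higher (13.3% of all genes). Creld2 stayed inside that line on the CPM of UMIs outside immunoglobulin genes, at 1.48, with scaling to the median gene, at 1.49, and with the richest cell of each class left out, at 1.45. It was therefore close to the line throughout.

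Depth moved with the genes that were lower at 12 h. At 0 h, 25 of 99 plasma-cell-like cells were under 0.5 times the class median depth, with a median of 1597 UMIs, and they held Hspa5 at 10179 CPM (9331 to 11083), against 1595 CPM (1515 to 1678) in the other 74 cells. At 12 h, 17 of 147 cells were that shallow, with a median of 3470 UMIs, and held Hspa5 at 3194 CPM (2749 to 3690), against 1127 CPM (1076 to 1179) in the other 130. Manf did not follow depth in this way, with 1191 CPM in the shallow cells of 0 h against 2118 CPM in the others. Without the shallow cells the ratio of 12 h over 0 h was 0.707 for Hspa5, 0.656 for Hyou1, 0.639 for Herpud1 and 1.53 for Creld2, so Hspa5 no longer passed the line. Shallow cells of B-cell-like, T-cell-like and mixed myeloid cells also had the higher summed level at both times. The part of depth in these ratios was not tested further.

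**Figure D3:**
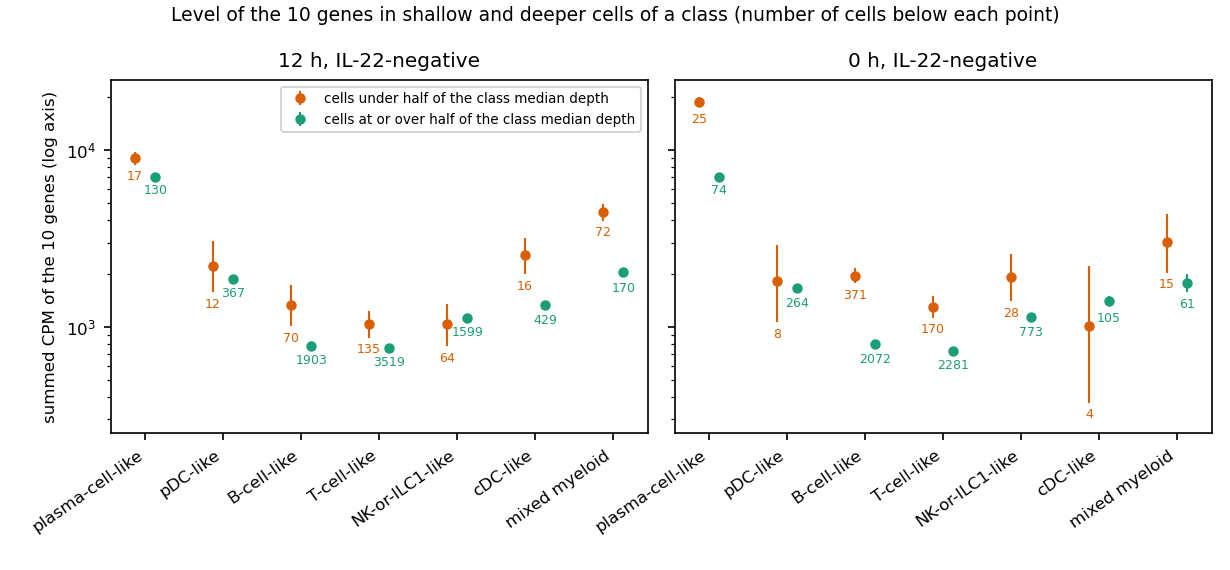
Summed CPM of the 10 genes (log axis) in cells under 0.5 times their class's median depth (orange) and in the other cells (green), by class, at 12 h (left) and 0 h (right) in the IL-22-negative libraries; bars are exact 95% counting intervals and the numbers below the points are cells. Monocyte-like cells are not drawn because 1 cell of 0 h was that shallow. In plasma-cell-like cells the shallow cells stand at 9009 CPM at 12 h and 18648 CPM at 0 h, against 7078 and 7052 CPM in the others.

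The antibody class of the plasma-cell-like cells also differed between times. Cells with mostly Igha UMIs numbered 96 at 12 h and 44 at 0 h, and cells with mostly IgG heavy chain UMIs 32 and 38. A further 11 cells at 12 h and 1 at 0 h had mostly Ighm, and 8 and 16 no dominant heavy chain. The last kind had a median depth of 5972 UMIs and Hspa5 at 203 CPM at 12 h, against 1454 UMIs and 5014 CPM at 0 h. Immunoglobulin was 0.753% of their UMIs at 12 h and 15.8% at 0 h, against 37.4% to 42.9% in the IgA and IgG cells, and their cell cycle list summed to 5416 CPM at 12 h and 2965 CPM at 0 h, against at most 707 CPM in those, so the plasma-cell-like name is weak for these cells. In the IgA cells Hspa5 had 1157 CPM (1095 to 1221) at 12 h and 1195 CPM (1105 to 1291) at 0 h. In the IgG cells it had 1525 CPM (1412 to 1645) at 12 h and 2853 CPM (2689 to 3025) at 0 h. For Hspa5 the intervals of the times thus overlapped in IgA cells and were apart in IgG cells. Those of Herpud1 were apart in both kinds. Herpud1 had 97.8 CPM (80.4 to 117.7) at 12 h and 149.4 CPM (118.6 to 185.7) at 0 h in IgA cells. In IgG cells it had 95.75 CPM (69.0 to 129.4) and 202.9 CPM (160.9 to 252.5). Hyou1 intervals overlapped in both kinds, with 54.6 and 71.9 CPM in IgA cells and 86.6 and 144.6 CPM in IgG cells. The difference between the kinds was not tested. Creld2 was higher at 12 h in both, with 1223 CPM at 12 h and 800.4 CPM at 0 h in IgA cells, and 1894 and 1055 CPM in IgG cells.

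In pDC-like cells 3 of the 10 genes were at least 1.5-fold higher at 12 h (4.81% of all genes) and 0 were lower (9.31% of all genes). Creld2 had 185 CPM at 12 h and 103 CPM at 0 h, a ratio of 1.80 (1.43 to 2.27). Sdf2l1 had 184 CPM at 12 h and 109.6 CPM at 0 h, a ratio of 1.68 (1.34 to 2.10), and Pdia4 had 90.8 and 57.2 CPM, a ratio of 1.59 (1.16 to 2.19). Plasma cell transcripts moved with them: immunoglobulin took 0.939% of UMIs in pDC-like cells at 12 h and 0.24% at 0 h, and the 9 plasma cell markers summed to 1108 CPM at 12 h and 447 CPM at 0 h. The single immunoglobulin-rich cell carried 83 Creld2, 37 Pdia4 and 30 Sdf2l1 UMIs. Without it immunoglobulin was 0.622% and the markers 596 CPM at 12 h, both still above 0 h, and their part in the ratios was not tested further. With the richest cell of each class left out the ratios were 1.30 for Creld2, 1.53 for Sdf2l1 and 1.21 for Pdia4, so 1 gene remained past the line.

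B-cell-like and T-cell-like cells had few genes past the line. In B-cell-like cells 0 genes were higher (2.36% of all genes) and 1 was lower (14.2%): Dnajb9 had 41.8 CPM at 12 h and 70.1 CPM at 0 h, a ratio of 0.596 (0.487 to 0.728). That gene too was high in shallow cells, at 253 CPM at 12 h and 285 CPM at 0 h, against 39.2 and 57.6 CPM in the others, and without the shallow cells its ratio was 0.681, inside the line. In T-cell-like cells, with 3654 cells at 12 h and 2451 at 0 h, 0 genes were higher (3.62%) and 0 lower (6.55%), and the 10 ratios ran from 0.815 for Xbp1 to 1.23 for Creld2. Hspa5 in T-cell-like cells was 351 CPM (339 to 363) at 12 h and 348 CPM (333 to 362) at 0 h.

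Monocyte-like cells had the most of the 10 genes past the line among the classes compared over time. Their summed level was 1658 CPM (1605 to 1713) in 409 cells at 12 h and 820.0 CPM (740.3 to 906) in 100 cells at 0 h. Of the 9 genes with enough UMIs for a ratio, 7 were at least 1.5-fold higher at 12 h, against 13.6% of all genes, and 0 were lower, against 9.03%. Their median log2 ratio was 1.00, against 0.03 over all genes. Sdf2l1 had 307 CPM (284 to 331) at 12 h and 99.9 CPM (73.4 to 133) at 0 h, a ratio of 3.08 (2.29 to 4.23). Hspa5 had 597 CPM at 12 h and 327 CPM at 0 h, a ratio of 1.82 (1.54 to 2.17), and Pdia6 had 188 and 80.7 CPM, a ratio of 2.33 (1.67 to 3.34). Manf had 250.3 CPM at 12 h and 125 CPM at 0 h, and the Xbp1 ratio was 1.54 (1.08 to 2.26). The genes past the line thus include chaperones, both disulfide isomerases and the transcription factor. Pdia4 and Creld2 had the highest ratios, 4.21 (1.88 to 11.7) and 3.70 (1.82 to 8.73), from only 6 and 8 UMIs at 0 h. Hyou1 and Herpud1 stayed at 0.982 and 0.981, with wide intervals of 0.519 to 2.01 and 0.592 to 1.71, and Dnajb9 was left out with 45 UMIs at 12 h and 8 at 0 h.

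**Figure D4:**
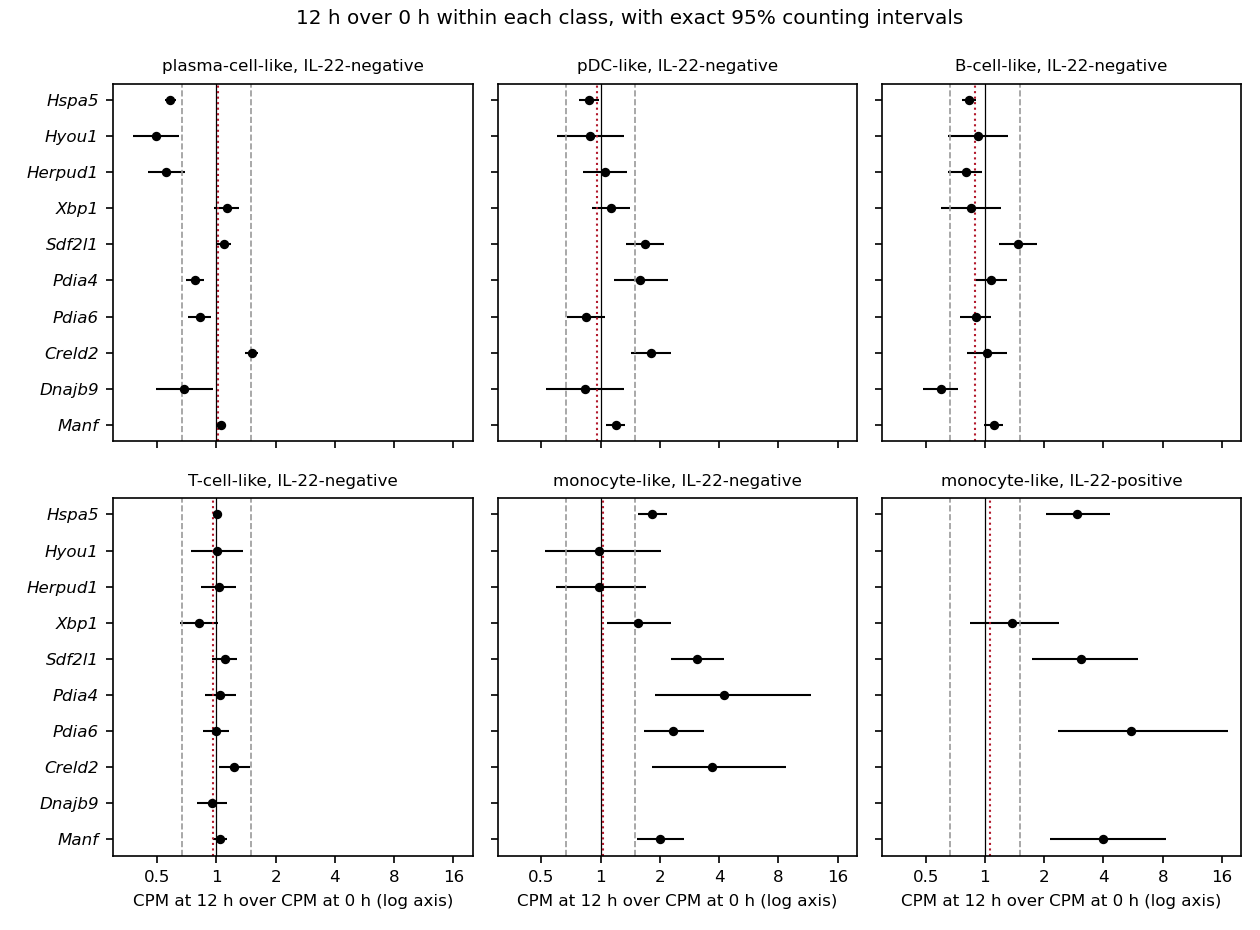
Ratio of CPM at 12 h over CPM at 0 h (log axis) for each of the 10 genes within 5 IL-22-negative classes and among IL-22-positive monocyte-like cells, with exact 95% counting intervals; dashed lines mark 1.5-fold in either direction, the dotted line the median of all genes, and genes with too few UMIs are not drawn. In IL-22-negative monocyte-like cells 7 genes lie right of the upper dashed line, and in T-cell-like cells all 10 lie between the lines.

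The IL-22-positive libraries, which are separate sorts, gave a second pair of monocyte-like cells, with 560 cells at 12 h and 32 at 0 h. The labels do not say whether the sorts of a time came from the same mice, so this pair is not known to be an independent repeat. Their summed level was 1694 CPM (1644 to 1745) at 12 h and 718 CPM (586 to 871) at 0 h. At 0 h that sum was 103 UMIs over all 10 genes, so the ratios of single genes rest on few UMIs there. Of the 5 genes with enough UMIs there, 4 were past the line (19.8% of all genes): Pdia6 at 5.53 (2.36 to 17.1), Manf at 3.98 (2.15 to 8.33), Sdf2l1 at 3.07 (1.74 to 5.96) and Hspa5 at 2.93 (2.05 to 4.32). The other one, Xbp1, had a ratio of 1.37 (0.843 to 2.37). Hyou1, Herpud1, Pdia4, Creld2 and Dnajb9 had too few UMIs, by a filter on the rate pooled over both times, which rests mostly on 12 h. A gene could thus enter through a high level at 12 h, so the 4 of 5 is no support for the first pair. In the main monocyte-like cluster of these libraries (444 cells at 12 h, 30 at 0 h) Dnajb9 had 21.3 CPM at 12 h and 80.95 CPM at 0 h. Herpud1 had 44.6 and 58.9 CPM there, Hyou1 25.2 and 7.36, Pdia4 39.8 and 29.4, and Creld2 43.2 and 29.4 CPM. At 0 h that cluster held 100 UMIs of the 10 genes together among 135891 UMIs. These single values of 0 h thus rest on very few UMIs, and no direction is read from them. At 12 h the sorted fractions were close to each other, with ratios of IL-22-positive over IL-22-negative monocyte-like cells from 0.718 for Creld2 to 1.41 for Xbp1. The mixed cluster with monocyte and C1q macrophage markers had 5 of 8 genes past the line in the IL-22-negative libraries (14.2% of all genes) and 5 of 10 in the IL-22-positive ones (12.1%). Its Hspa5 ratio was 0.922 (0.786 to 1.09) in the IL-22-negative libraries and 1.34 (1.19 to 1.51) in the IL-22-positive ones, where Dnajb9 had a ratio of 0.604 (0.389 to 0.958). Its makeup also moved with time. In the IL-22-negative libraries the 11 monocyte markers summed to 16031 CPM at 12 h and 23234 CPM at 0 h, the 10 macrophage markers to 1599 and 1177 CPM and the 6 stellate cell markers, of which 1 was found, to 103 and 29.4 CPM, and median depth was 3744 UMIs at 12 h and 1493 at 0 h. The 5 erythroid markers summed to 10638 CPM at 12 h, all from 5 of 242 cells, and to 0 at 0 h, and of the 4 platelet markers Ppbp alone was found, at 153 CPM at 12 h and 0 at 0 h. In the IL-22-positive libraries the macrophage markers summed to 2761 CPM at 12 h and 4788 CPM at 0 h and the monocyte markers to 11392 and 19495 CPM. The part of these in the ratios of the mixed cluster was not tested. cDC-like cells had 1 gene higher (8.7%), Sdf2l1 at 1.53 (1.23 to 1.92), and 1 lower (8.46%), Dnajb9 at 0.561 (0.322 to 1.01).

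Other markers moved with time in monocyte-like cells. The 8 neutrophil markers summed to 4772 CPM at 12 h and 104 CPM at 0 h in the IL-22-negative libraries, and to 4026 and 188 CPM in the IL-22-positive ones. Most of this was S100a8, a calcium-binding alarmin that monocytes also make, with 4037 CPM at 12 h and 12.8 CPM at 0 h. The neutrophil genes Mmp9, Retnlg and Cxcr2 had 0, 2 and 6 UMIs at 12 h and 0 at 0 h. Nearly all the rest of the sum was thus in S100a9, Csf3r, Mmp8 and Trem1, which are not given singly. The 10 macrophage markers summed to 119 CPM at 12 h and 2.12 CPM at 0 h, with Clec4f, Cd5l, Marco, Timd4 and Slc40a1 at 0 at both times. That sum was thus in the other markers, C1qa, C1qb, C1qc, Vsig4 and Folr2, which are not given singly. The 11 monocyte markers themselves summed to 30145 CPM at 12 h and 41489 CPM at 0 h in the IL-22-negative libraries, and to 18761 and 36885 CPM in the IL-22-positive ones. The interferon-response list summed to 1818 CPM at 12 h and 1292 CPM at 0 h in the IL-22-negative libraries, and to 3529 and 1576 CPM in the IL-22-positive ones. The part of these markers in the ratios was not tested. A cluster led by interferon-response genes held 46 of 409 IL-22-negative monocyte-like cells at 12 h and 7 of 100 at 0 h, and 116 of 560 and 2 of 32 IL-22-positive ones. In the main monocyte-like cluster alone the 10 genes summed to 1649 CPM at 12 h and 792 CPM at 0 h in the IL-22-negative libraries, and to 1620 and 736 CPM in the IL-22-positive ones. Median depth of the monocyte-like cells was 5330 UMIs at 12 h and 4648 at 0 h. With each cell thinned to 1000 UMIs, 12.3% of 407 cells at 12 h held at least 3 of the 10 genes (9.26 to 15.9), and 0 of 100 cells at 0 h, for which the exact binomial upper bound is 3.62%.

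The wider pathway was described with 6 lists, of 111 genes found in the features, that do not include the 10. Over B-cell-like cells at 12 h, plasma-cell-like cells had 32 of 37 translocation, glycosylation and traffic genes at least 2-fold higher, 15 of 20 ER chaperones and folding factors, and 12 of 17 genes of ER-associated degradation, where 8.03% of all genes were. Sec61b, a subunit of the translocation channel, had 2516 CPM in plasma-cell-like cells and 419.8 CPM in B-cell-like cells, a ratio of 5.99 (5.65 to 6.36). Hsp90b1, the Hsp90 of the ER, had 8471 and 473 CPM, a ratio of 17.9 (17.0 to 18.8), whereas the thioredoxin-like Erp29 had a ratio of 1.04 (0.948 to 1.13). Selenos, a membrane component of the degradation machinery, had a ratio of 3.86 (3.45 to 4.32). Most measured genes of these 3 lists were thus past the line, which was not so for the sensors and the PERK branch. Of 7 sensors and transducers 2 were higher and 2 lower, and of 11 genes of the PERK branch and integrated stress response 2 were higher and 2 lower, where 8.03% of all genes were higher and 48.6% lower. Ppp1r15a, the phosphatase subunit GADD34 that restores translation, had 62.0 CPM in plasma-cell-like cells and 510.1 CPM in B-cell-like cells, a ratio of 0.122 (0.0990 to 0.148). Cytosolic heat shock genes, which answer to another factor, had 0 of 10 higher and 7 lower, where 48.6% of all genes were lower. The list called cytosolic here also holds Hspd1 and Hspe1, which encode mitochondrial chaperones. The cytosolic Hsp70 gene Hspa8 had 239 CPM in plasma-cell-like cells and 529.7 CPM in B-cell-like cells, a ratio of 0.452 (0.405 to 0.503).

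pDC-like cells over B-cell-like cells at 12 h had 24 of 36 translocation and traffic genes, 7 of 20 chaperones and 7 of 17 degradation genes at least 2-fold higher, and 0 of 10 cytosolic heat shock genes, where 14.5% of all genes were. Among their sensors and transducers Creb3, an ER-bound transcription factor, had 119 CPM in pDC-like cells and 32.5 CPM in B-cell-like cells, a ratio of 3.66 (2.89 to 4.66). In monocyte-like cells 12 h over 0 h, 11 of 33 translocation and traffic genes, 6 of 17 chaperones and 3 of 11 degradation genes were at least 1.5-fold higher, while 0 of 9 cytosolic heat shock genes and 1 of 9 genes of the PERK branch were. Over all genes the share was 13.6%. Hsp90b1 had 863 CPM in monocyte-like cells at 12 h and 446 CPM at 0 h, a ratio of 1.94 (1.68 to 2.24), and Sec61g, another subunit of the translocation channel, a ratio of 1.86 (1.65 to 2.10). Atf3, a transcription factor of the integrated stress response, had a ratio of 0.747 (0.690 to 0.810).

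**Figure D5:**
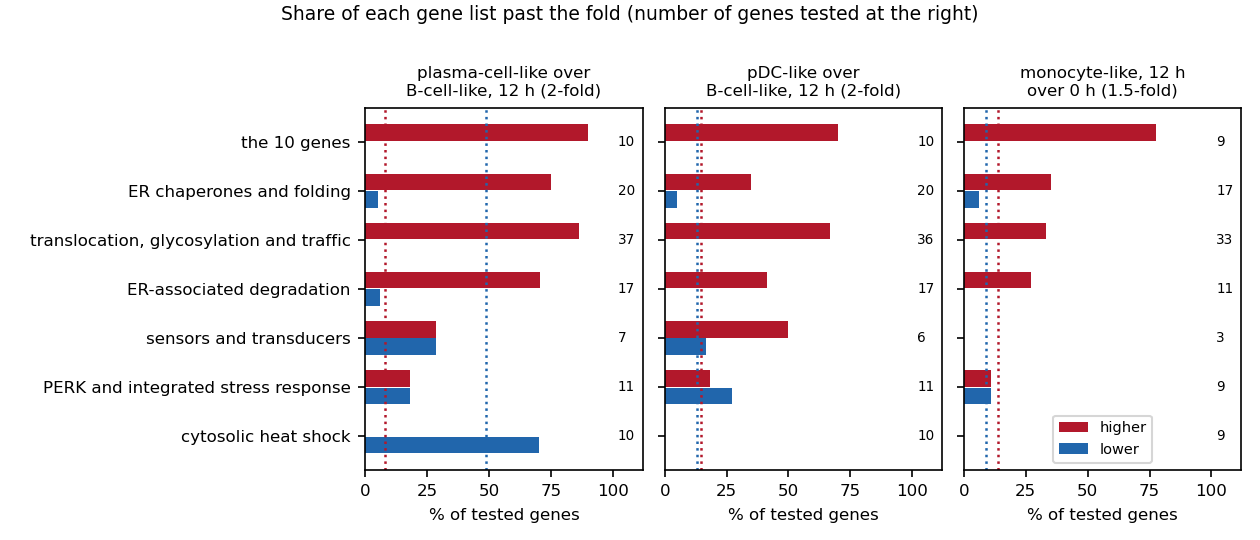
Share of the tested genes of each list (the 10 genes and 6 wider pathway lists) that were higher (red bars) or lower (blue bars) past the fold in 3 comparisons, with the number tested at the right of each panel and dotted lines for the share among all genes tested. The translocation, chaperone and degradation lists exceed the red line in all 3 panels. The list labelled cytosolic heat shock, which also holds the mitochondrial Hspd1 and Hspe1, has 0 higher genes in each.

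The genes whose levels were most like the mean of the 10, over 14 class sums (7 classes at 2 times) of the IL-22-negative libraries and among 2322 eligible genes, were Hsp90b1 (Pearson's r 0.989), Ostc (0.978), Ssr2 (0.976), Bet1 (0.975) and Slc35b1 (0.963). Ostc and Ssr2 encode parts of the oligosaccharyltransferase and of the translocon-associated complex, and Bet1 a membrane fusion protein of ER to Golgi traffic. The sums share libraries, and plasma-cell-like cells are 2 of the 14 points. Eligible genes had at least 100 CPM in at least 1 of the sums, so a gene could enter through the plasma-cell-like sums alone. Bet1 had 104.1 CPM in plasma-cell-like cells at 12 h and 103.7 CPM at 0 h, against 44.7 and 41.95 CPM in pDC-like cells. It was lower still in B-cell-like and T-cell-like cells. Within the 10, Manf (0.987) and Creld2 (0.977) were nearest to the mean that includes them, and Dnajb9 (0.42) was farthest.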

How the data were processed

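Gene by cell UMI counts of 4 libraries were used as the authors deposited them: raw whole numbers, written by Cell Ranger 4.0.0 per the file headers; the submitters' processing notes name version 3.0.1 and mm10. Per the labels' protocols, livers were digested (collagenase, DNase), and leukocytes were taken from a Percoll gradient, sorted, and made into Single Cell 3' v2 libraries. Barcodes needed 200 genes or more and less than 10% mitochondrial UMIs. Scrublet, with its automatic threshold in each library, then took out 507 (12 h) and 442 (0 h) IL-22-negative and 5 (12 h) and 6 (0 h) IL-22-positive barcodes. Scanpy 1.11.5 clustered all cells (2000 variable genes, 30 components, 15 neighbours, Leiden resolution 1) into 21 clusters, named from 20 marker lists. A cluster with monocyte markers and 3 of 10 macrophage markers detected was counted as myeloid only. Of the kept IL-22-negative cells, 4.75% at 12 h and 17.8% at 0 h stayed unnamed, nearly all in a shallow cluster, and a further 1.55% and 0.764% in a cluster led by cell cycle genes.

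Class sums were compared as ratios of CPM with exact Clopper-Pearson intervals, and levels with exact Poisson intervals, which cover counting error only. A ratio was formed where at least 10 UMIs were expected in the smaller sum. Folds of 2 between classes and 1.5 between times were counted, and no test was run with 1 library per group. A heavy chain was assigned with at least 10 heavy chain UMIs and at least 50% of one kind. The ratio code was checked on simulated sums. The members and lists were chosen with earlier results of these data known. Named genes are the 10 members, up to 3 genes with the most UMIs per pathway list, and the 5 most like the members by log2(CPM + 10); marker genes were named besides. Alternatives changed the scaling, cell filter, doublet removal, clustering, depth and low-count filter. Gene positions are from GENCODE vM21 (GRCm38).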

Additional observations from a re-analysis of the deposited data

How the results depend on the processing

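The count of monocyte-like genes past the fold kept within 1.5 times of its value in every alternative, and no called ratio changed direction. Counts that moved were these. On the CPM of UMIs outside immunoglobulin genes, plasma-cell-like cells had 0 genes higher at 12 h. With median-ratio scaling they also had 0 higher, and B-cell-like cells had 1 higher and 0 lower. With a stricter filter (500 genes, 5% mitochondrial UMIs), pDC-like cells had 1 gene past 2-fold over all 3 classes at 12 h and 0 higher at 12 h over 0 h, and B-cell-like cells had 1 higher and 0 lower. With Scrublet calls kept, and likewise with the pathway genes allowed for clustering, pDC-like cells had 0 past 2-fold at 12 h and 1 higher over time, and B-cell-like cells 0 lower. With each cell thinned to 1000 UMIs, which leaves fewer genes with enough UMIs, plasma-cell-like cells had 4 past 2-fold over all 3 classes at 12 h and 2 at 0 h, with 0 higher and 5 lower over time, and pDC-like cells had 1 past 2-fold at 12 h. With the richest cell of each class left out, pDC-like cells had 1 past 2-fold at 12 h and 1 higher over time, and plasma-cell-like cells 0 higher. Without cells under 0.5 times their class's median depth, chosen after seeing the data, B-cell-like cells had 0 lower. Beyond what the construction shows, the cause was not tested. Leiden resolution 2, no filter on low counts, and leaving out the shallow or the interferon-led clusters (both chosen after seeing the data) moved no count past 1.5 times. No paired analysis was possible because each group has 1 library. With 1 library per group, differences between mice, sorts and library preparations cannot be told apart from time, and Pdia4, Creld2 and Dnajb9 in monocyte-like cells of 0 h rest on 6 to 8 UMIs.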

Other observations

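The highest summed level of the 10 genes after plasma-cell-like cells was in a small unnamed cluster with pDC and cDC markers, led by Mpeg1. It had 6185 CPM in 45 cells at 12 h and 6514 CPM in 60 cells at 0 h. Its cells too were of low depth, with a median of 0.569 times that of their library. Hspa5 made up most of the level, with 3854 CPM at 12 h and 4015 CPM at 0 h, while Manf had 182 and 202 CPM. The part of depth in this level was not tested. A larger unnamed, shallow cluster had 2960 CPM in 411 cells at 12 h and 2664 CPM in 1339 cells at 0 h. Within B-cell-like cells, a shallow cluster led by Ero1lb, an ER oxidase gene, had 1384 CPM in 99 cells at 12 h and 1976 CPM in 413 cells at 0 h, against 764 and 770.4 CPM in the main B-cell-like cluster. The shallow unnamed cluster made up 4.29% of IL-22-negative cells at 12 h and 17.0% at 0 h.

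Natural killer or ILC1-like cells had a level of the 10 genes above that of T-cell-like cells, with 1123 CPM at 12 h and 1143 CPM at 0 h. Hspa5 there was 489.7 CPM (467 to 513) at 12 h and 519.9 CPM (487 to 555) at 0 h. Basophil-like cells had 903 CPM in 25 cells at 12 h and 1793 CPM in 39 cells at 0 h. Neutrophil-like cells of 12 h had the lowest summed levels of the named classes of 20 or more cells at that time, 599 CPM in 50 IL-22-negative cells and 311 CPM in 22 IL-22-positive cells.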
